A study of Mus musculus with 21 samples.

Results

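RNA of 10 genes of antigen presentation by the major histocompatibility complex (MHC) was measured in microglia, the resident macrophages of the brain, taken from mice with and without apolipoprotein E (ApoE). The genes were chosen by name: the class II chains H2-Aa, H2-Ab1 and H2-Eb1, the invariant chain Cd74, the class II activator Ciita, the peptide exchange chain H2-DMa, the class I heavy chains H2-K1 and H2-D1, the light chain B2m and the peptide transporter Tap1. They are 10 of the 18079 genes kept in the table that compares genotypes. In the table that compares injections, 9 of them were measured among 13297 genes, and Ciita was not analysed there. The genotype table holds 4 libraries labelled ApoE KO, from uninjected females of strain B6.129P2-Apoetm1Unc/J, whose Apoe gene was disrupted in the germline and so in every cell of the animal. It sets them against 7 libraries labelled WT, from uninjected C57BL/6 females. The injection table holds 5 libraries from males of the same knockout strain that received recombinant APOE protein (rAPOE) in phosphate-buffered saline (PBS), set against 5 libraries from knockout males injected with PBS. Both injected groups therefore carry the disrupted allele. All mice were 12 to 18 weeks old. The injection went into the left side of the brain, cells were taken 16 h later, and both sides were kept. The labels name neither the side behind a library nor separate mice for the libraries of a group, so each p-value measures only the spread between samples, which may be technical.

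Class II molecules are pairs of an alpha and a beta chain that carry peptides from engulfed material to helper T cells. The invariant chain fills their groove until the H2-DM exchange factor swaps its remnant for a peptide, and Ciita is the master switch of transcription for these genes. Class I molecules are a heavy chain and beta-2 microglobulin, which show peptides cut in the cytosol and pumped into the endoplasmic reticulum by the Tap transporter. Microglia of a healthy brain carry little class II, while dendritic cells, B cells and some macrophages at the borders of the brain carry much of it.

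The promoters of both gene classes share a module in which an X2 element (cyclic AMP response type) stands a fixed distance before an inverted CCAAT box (the Y box). It is shown because genes of both classes carry it. It was searched as TGANG, then 18 to 22 bases of any kind, then ATTGG, on both strands, in RefSeq promoters (GRCm38.p6, 250 bases before to 50 after a start), a pattern chosen with these promoters in view. Of all 32851 promoters, 1.44% held it. Of 7 members whose promoter was searched, H2-Aa, H2-Eb1, H2-K1, H2-D1 and B2m held it, and the windows of H2-DMa and Tap1 did not contain these letters. The promoters of H2-Ab1, Cd74 and Ciita were not searched, so the search says nothing about these class II genes. The kappa-B motif GGGATTCCC, in 0.353% of all promoters, and the interferon response motif (GAA, 2 bases of any kind, GAAA), in 7.52%, were both found in H2-K1 and H2-D1. In the 190 bases printed for 4 members, 5′ to 3′ on the strand of the gene, capitals mark the X2 element and the Y box.
H2-Aa, chr17:34287834-34288023, minus strand: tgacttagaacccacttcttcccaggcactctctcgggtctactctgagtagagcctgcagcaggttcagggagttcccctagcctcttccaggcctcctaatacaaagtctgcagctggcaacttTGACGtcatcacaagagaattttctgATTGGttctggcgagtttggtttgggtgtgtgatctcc
H2-Eb1, chr17:34305667-34305856, plus strand: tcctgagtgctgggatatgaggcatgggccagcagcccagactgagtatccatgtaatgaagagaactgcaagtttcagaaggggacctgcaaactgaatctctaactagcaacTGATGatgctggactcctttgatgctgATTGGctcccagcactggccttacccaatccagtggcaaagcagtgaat
H2-K1, chr17:34000358-34000547, minus strand: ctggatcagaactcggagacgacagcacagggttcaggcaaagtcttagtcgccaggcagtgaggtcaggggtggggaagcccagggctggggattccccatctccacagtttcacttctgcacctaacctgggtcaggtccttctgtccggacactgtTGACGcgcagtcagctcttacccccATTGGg
B2m, chr2:122147487-122147676, plus strand: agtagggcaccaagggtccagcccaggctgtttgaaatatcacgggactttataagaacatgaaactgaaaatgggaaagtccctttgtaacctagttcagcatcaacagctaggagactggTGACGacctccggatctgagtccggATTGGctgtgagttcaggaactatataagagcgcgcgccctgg
A match describes letters and is not a site.

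Depth came to 4247865 to 4969287 reads per knockout library, 2016972 to 3054976 per wild-type library, 857059 to 1119059 per rAPOE library and 704225 to 1347501 per PBS library. Knockout libraries nevertheless held fewer detected genes, 8117 to 10479, against 13592 to 15248 in wild type. Mitochondrial ribosomal RNA took 0.647% to 0.886% of the summed values in knockout libraries, 4.67% in wild-type library 8 and 1.36% to 1.59% in the rest of the wild type. These differences run with the groups, and their part in the results was not tested. Apoe itself stood at 0 to 23.1 normalised counts in the knockout libraries and at 1011 to 17163 in the wild-type libraries. The lowest of these values, 1011, belongs to wild-type library 8, which stood apart from its group in 7 of the 10 genes. Knockout libraries and wild-type library 8 held 0 reads of Y-linked genes and Xist at 1980 to 3292. The rest of the wild type, although labelled female, held 11 to 36 Y-linked reads beside Xist at 1127 to 1279, so these libraries held RNA of both sexes, and whether animals were pooled or mixed up cannot be told apart from the labels. In the injection table, rAPOE library 5 held Xist at 718, PBS library 5 held it at 979, and neither held a Y-linked read, against their label of male. Differences of the members, and of pathway genes called between genotypes, are therefore given with and without wild-type library 8, or the pair of libraries numbered 5. The summed level of 8 microglial markers was 64220 to 75862 in the knockout libraries, 63762 in wild-type library 8 and 47145 to 50165 in the rest of the wild type, so the labelled cell type was present throughout.

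In the genotype comparison, the class II chains were lower and H2-DMa was higher in the knockout libraries. H2-Aa, H2-Ab1 and H2-Eb1 were 8.25-, 7.07- and 5.05-fold lower in knockout than in wild-type libraries by group means. H2-DMa was 1.81-fold higher. H2-K1, H2-D1, B2m, Tap1 and Cd74 did not pass with all libraries in. Of 9 members tested, 1 was higher and 3 were lower, at an adjusted p under 0.05 in limma, a linear model fitted over all genes of the table. Of all 10401 genes tested, 5.14% were called higher and 19.8% lower. Without wild-type library 8, 2 members were higher (H2-DMa and B2m) and 5 lower (the chains, Cd74 and H2-D1), where 7.6% of all genes were higher and 22.6% lower. Library 8 was singled out partly by its low values in these same genes, so leaving it out narrows their wild-type spread. Calls and p-values without it, here and below, therefore describe how far the results rest on it and are no separate support. The median difference of the 9 members was -0.78 on the log2 scale, beside -0.45 for all genes. After quantile rescaling, which forces 1 distribution on all libraries, the median of all genes was 0.09, 920 genes were higher and 1027 lower (535 and 2061 as deposited), and each called member kept its direction.

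**Figure D1:**
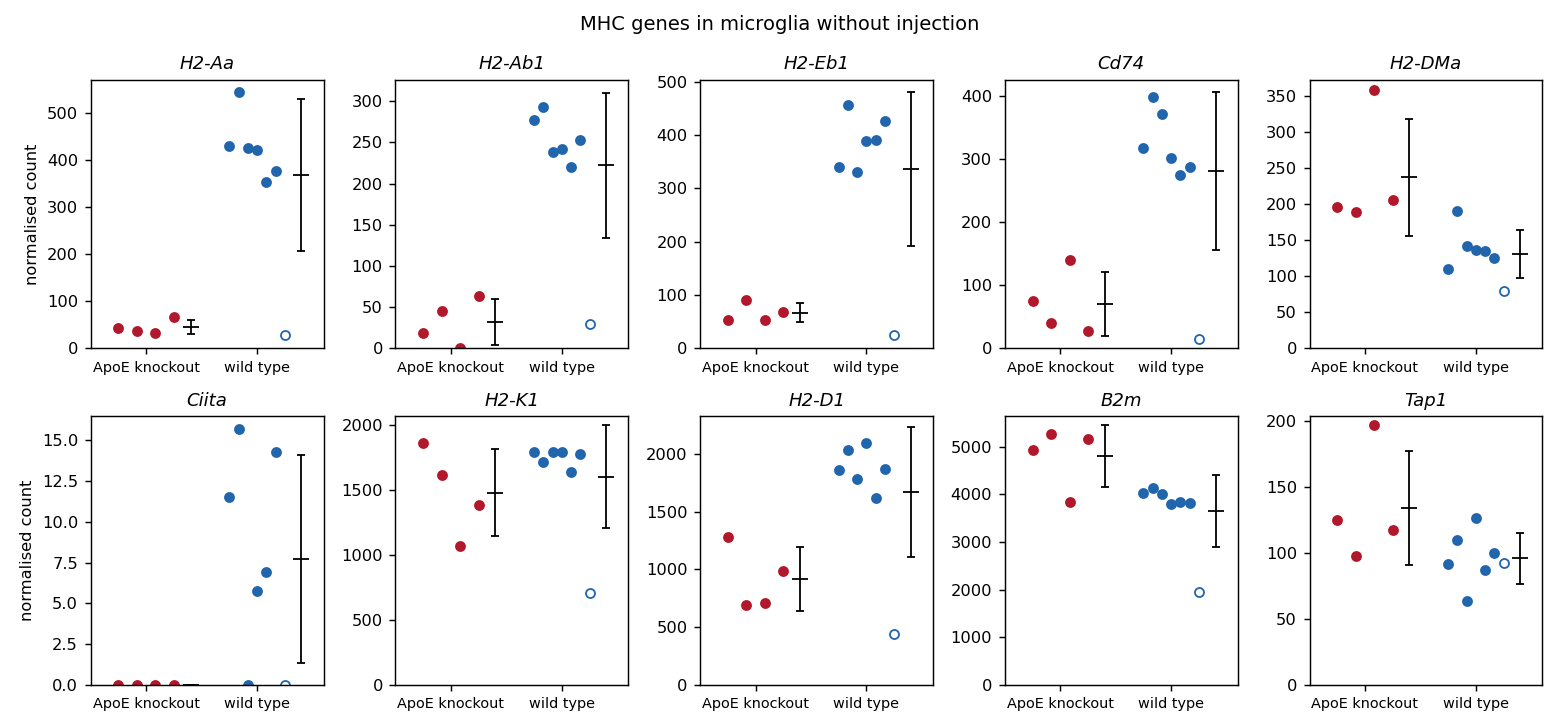
Normalised counts (vertical axes, each from 0) of the 10 MHC genes in the 4 ApoE knockout libraries (red, left) and the 7 wild-type libraries (blue, right). Each point is a library, the open point is wild-type library 8, and the bar beside each group is the mean ± SD. Wild-type library 8 lies with or below the knockout libraries for H2-Aa, H2-Ab1, H2-Eb1, Cd74, H2-K1, H2-D1 and B2m.

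H2-Aa, the alpha chain of the I-A molecule, lies on chromosome 17 at 34282744 to 34287823 (GRCm38, GENCODE M21, minus strand, protein coding). It had 43.1, 36.5, 32.4 and 66.9 normalised counts in knockout libraries 1 to 4, that is, reads divided by a library-wide factor. Wild-type libraries had 28.9 at the lowest, 423 at the median and 546 at the highest. The lowest value is that of library 8, and the other 6 wild-type libraries, from 354 upward, all stood above every knockout library. How many of all genes separate the groups in this way was not counted, which holds also for H2-Ab1, H2-Eb1 and H2-D1 below. The mean was 44.8 ± 15.4 in knockout and 369 ± 162 in wild type (SD, n = 4 and 7), which is 8.25-fold lower in knockout. The difference on the log2(normalised count + 1) scale was -2.72 (95% interval -4.06 to -1.37, limma adjusted p = 0.00565). It was -3.26 without wild-type library 8 (limma adjusted p = 4.44e-07), and H2-Aa passed under all 20 alternatives tried.

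H2-Ab1, the beta chain that pairs with it (chromosome 17, 34257689 to 34269419, plus strand), had 18.2, 44.5, 0 and 62.9 normalised counts in the knockout libraries. Wild-type libraries had 28.9 at the lowest, 242 at the median and 293 at the highest. Again library 8 was the low one, and without it the groups did not overlap. The difference was -3.61 (95% interval -5.63 to -1.58, limma adjusted p = 0.0122), and -4.05 without wild-type library 8 (limma adjusted p = 0.00472). The single 0, in knockout library 3, weighs on its size: without that library the difference was -2.29, and edgeR's quasi-likelihood test on the recovered reads gave -2.77 (adjusted p = 0.0331).

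H2-Eb1 encodes the beta chain of the I-E molecule, whose alpha partner gene is not expressed in C57BL/6 mice (chromosome 17, 34305867 to 34316674, plus strand). It had 53.4, 90.8, 53.6 and 68.7 normalised counts in the knockout libraries. Wild-type libraries had 25.3 at the lowest, 389 at the median and 456 at the highest. Library 8 lay below all knockout libraries, and the other 6 wild-type libraries, from 330 upward, lay above them. The difference was -2.0 (95% interval -3.34 to -0.65, limma adjusted p = 0.0315), and -2.55 without wild-type library 8 (limma adjusted p = 7.95e-07). Leaving out knockout library 1, 3 or 4, or wild-type library 1, 2, 3, 4, 6 or 7, ended the call, with limma adjusted p from 0.0573 to 0.0740.

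Cd74, the invariant chain that escorts class II molecules (chromosome 18, 60803848 to 60812652, plus strand), had 75.5, 39.6, 140 and 26.6 normalised counts in the knockout libraries. Wild-type libraries had 14.4 at the lowest, 302 at the median and 398 at the highest. Knockout library 3 was highest in its group for Cd74 and lowest for H2-Ab1, so the knockout libraries took a different order for these genes. The difference was -1.83 (95% interval -3.45 to -0.20, limma adjusted p = 0.0962) and did not pass. It was -2.45 without wild-type library 8 (limma adjusted p = 2.47e-04), and -1.98 by edgeR (adjusted p = 0.0427).

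Ciita, the activator (chromosome 16, 10480059 to 10528418, plus strand), was at the edge of detection. It had 0 in all 4 knockout libraries, 0 of 18912385 reads. Wild-type libraries had 11.5, 15.7, 0, 5.79, 6.90, 14.3 and 0, in all 54 reads, and the libraries at 0 were 3 and 8. Its wild-type mean was 21.9-fold above a floor of 3 reads over the knockout group. That bound covers counting error in knockout only, and not the spread of the wild-type libraries. The mean of Ciita was under the filter of 10 normalised counts, so it was not tested. Without the filter it missed the threshold (limma adjusted p = 0.0525). The end of Ciita overlaps Dexi, a gene on the other strand, and the strand setting of the counting is not given in the sources used here.

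H2-DMa, the alpha chain of the peptide exchange factor (chromosome 17, 34119541 to 34139101, plus strand), went the other way. It had 196, 188, 358 and 205 normalised counts in the knockout libraries. Wild-type libraries had 79.4 at the lowest, 134 at the median and 190 at the highest. Knockout library 2 lay just below wild-type library 2, and every other knockout library lay above every wild-type library. The mean was 237 ± 81.3 in knockout and 131 ± 33.5 in wild type (SD, n = 4 and 7). The difference was 0.84 (95% interval 0.30 to 1.38, limma adjusted p = 0.0259), and 0.73 without wild-type library 8 (limma adjusted p = 0.0220). Leaving out knockout library 3 gave 0.62 (limma adjusted p = 0.0797), and leaving out wild-type library 1 gave 0.80 (limma adjusted p = 0.0501), which ended the call.

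Summed over H2-Aa, H2-Ab1, H2-Eb1 and Cd74, the level was 190, 212, 226 and 225 normalised counts in the knockout libraries. In wild type it was 97.5 in library 8 and 1240 to 1693 in the rest. The sum was thus nearly even within the knockout group although its members were not. Summed markers of other cell types that carry class II were also lower in knockout and library 8 than in the rest of the wild type. Dendritic cell markers (8 of 9 measured) summed to 113 to 206 in knockout, to 850 to 1333 in wild type other than 8, and to 66.8 in library 8. In wild type other than 8 most of that sum was Itgax, an integrin also found on activated microglia, which was at 19.5 to 61.5 in knockout libraries and at 750 to 1208 in these wild-type libraries. Flt3, Clec9a, Ccr7 and Cd209a were at 0 in all knockout libraries. They were low in wild type too, where Ccr7 had 61 reads, Cd209a 32, and Flt3 and Clec9a fewer. Of 4 dendritic cell markers tested, 1 was lower (Itgax) and 1 higher. The higher one, Batf3, a transcription factor of dendritic cells, rose by 1.40 (limma adjusted p = 0.0169).

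B cell markers (8 of 8 measured) summed to 252 to 523 in knockout, 343 in wild-type library 8 and 597 to 868 in the rest of the wild type, with 2 of 5 tested lower. Cd79a, Ms4a1 and Pax5 were at 0 in all knockout libraries, and most of what remained was Ighm, the heavy chain of IgM. In wild type, Ms4a1 had 309 reads and Pax5 76, but Cd79a fewer. Border macrophage markers (8 of 8) summed to 105 to 250 in knockout, 246 in wild-type library 8 and 687 to 823 in the rest, with 3 of 7 tested lower and none at 0 throughout the knockout group. The gap was mostly in Pf4, a chemokine at 0 to 11.9 in knockout and 349 to 443 in wild type other than 8, whereas Mrc1, a mannose receptor of these cells, did not pass (0.01, limma adjusted p = 0.983). Monocyte markers (9 of 9) summed to 0 to 195 in knockout, 83.0 in wild-type library 8 and 1408 to 1581 in the rest, with 5 of 8 tested lower and Plac8, S100a4 and Vcan at 0 in knockout. Wild-type libraries held 284 reads of Plac8 and 939 of S100a4, but fewer of Vcan. Serosal macrophage markers (5 of 5) summed to 0 to 8.91 in knockout, 1.81 in wild-type library 8 and 1956 to 2686 in the rest, with 4 of 4 tested lower and Alox15, Gata6 and Prg4 at 0 in knockout. All of these lists thus put wild-type library 8 near the knockout libraries, as the class II genes did. So did some lists of cells that carry little class II, given next.

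Lists of cells that carry little class II were measured as well. T and NK cell markers (8 of 8) summed to 0 to 71.7 in knockout, 3.61 in wild-type library 8 and 31.5 to 53.1 in the rest, with 6 at 0 in knockout and none high enough to test. Choroid plexus markers (5 of 5) summed to 427 to 826 in knockout, 23380 in wild-type library 8 and 56423 to 82398 in the rest, with 5 of 5 lower. Neutrophil markers (6 of 6) summed to 1443 to 5361 in knockout, 143 in wild-type library 8 and 1824 to 2351 in the rest, with 0 of 5 tested called in limma or edgeR and 1 at an unadjusted p under 0.05 in each. Endothelial markers (6 of 6) summed to 115 to 220 in knockout, 209 in wild-type library 8 and 241 to 365 in the rest, with 2 of 5 tested lower (3 lower and 1 higher without library 8). Library 8 thus lay within the knockout range for T and NK cell and endothelial markers too. For neutrophil markers it lay below the knockout libraries and the rest of the wild type. For choroid plexus it stood between the groups rather than with the knockout. The part of these cells in the class II result was not tested. In such bulk libraries, fewer cells of a type and less RNA per cell cannot be told apart.

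**Figure D2:**
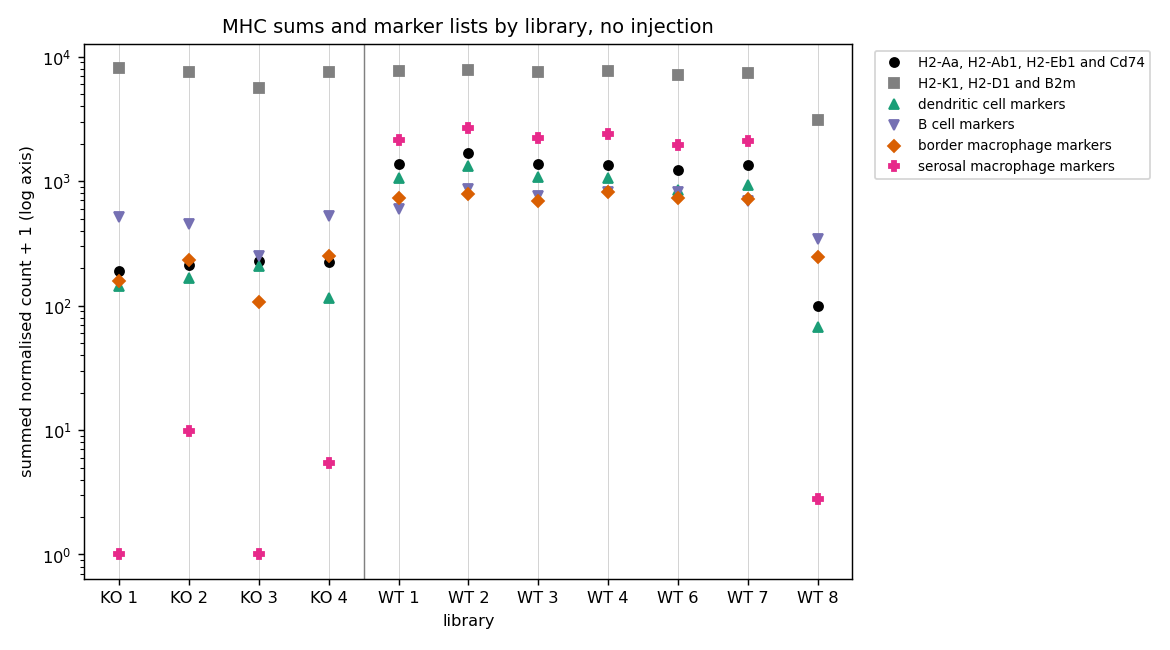
Summed normalised count plus 1 (log axis) of the 4 class II genes, of 3 class I genes and of marker lists of 4 other cell types, in each library without injection, knockout left and wild type right. In wild-type library 8 the class II sum (97.5) and the markers of dendritic cells and serosal macrophages stand near the knockout libraries, far below the other wild-type libraries.

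Class I transcripts had no common direction. H2-K1, a classical heavy chain (chromosome 17, 33996017 to 34000347, minus strand), had 1861, 1613, 1069 and 1384 normalised counts in the knockout libraries. Wild-type libraries had 711 at the lowest, 1781 at the median and 1797 at the highest. The 6 wild-type libraries other than 8 were tightly grouped from 1636 upward, and 3 of the 4 knockout libraries lay below them. The difference was -0.09 (95% interval -0.61 to 0.43, limma adjusted p = 0.820), and -0.27 without wild-type library 8 (limma adjusted p = 0.122). Set against the median of all genes it was 0.37 as deposited and -0.23 after quantile rescaling, so its side of that median depended on the scaling.

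H2-D1, the other classical heavy chain (chromosome 17, 35262730 to 35267499, plus strand), had 1279, 688, 711 and 989 normalised counts in the knockout libraries. Wild-type libraries had 439 at the lowest, 1861 at the median and 2093 at the highest. All wild-type libraries other than 8, from 1616 upward, lay above every knockout library. The difference was -0.78 (95% interval -1.55 to -0.00467, limma adjusted p = 0.135) with all libraries, and -1.07 without wild-type library 8 (limma adjusted p = 2.13e-04), so 1 library decides this call. The last 300 bases of the H2-K1 and H2-D1 transcripts were 77.0% identical over 252 aligned bases, and those of H2-K1 and its relative H2-Q7 85.7% over 259. Since the handling of tags shared by such copies is not stated, counts of these heavy chains are uncertain.

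B2m, the light chain that every class I molecule needs (chromosome 2, 122147686 to 122153083, plus strand), had 4939, 5272, 3846 and 5176 normalised counts in the knockout libraries. Wild-type libraries had 1957 at the lowest, 3844 at the median and 4145 at the highest. Knockout libraries 1, 2 and 4 lay above every wild-type library, and library 3 lay among them. The difference was 0.42 (95% interval 0.00434 to 0.84, limma adjusted p = 0.133), and 0.28 without wild-type library 8 (limma adjusted p = 0.0274). The end of B2m overlaps Patl2 on the other strand. Without library 8, H2-D1 was thus called lower and its light chain higher in knockout. The marker sums of other cell types given above differ between the same libraries, and their part in the class I values was not tested.

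Tap1, a subunit of the peptide transporter (chromosome 17, 34187553 to 34197225, plus strand), had 125, 97.5, 197 and 117 normalised counts in the knockout libraries. Wild-type libraries had 63.7 at the lowest, 92.1 at the median and 126 at the highest. The groups overlapped, and only knockout library 3 lay above all wild-type libraries. The difference was 0.46 (95% interval -0.09 to 1.01, limma adjusted p = 0.211), and 0.45 without wild-type library 8 (limma adjusted p = 0.194).

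Genes that act beside the members were counted in lists chosen with earlier results of these data known. The shares of all genes to read these counts against are 5.14% higher and 19.8% lower, or 7.6% and 22.6% without wild-type library 8. Among class II accessory genes, 2 of 10 tested rose in knockout and 0 fell (3 and 0 without wild-type library 8), beside a list median of 0.21. Lgmn, a lysosomal protease that trims the invariant chain, rose to 4663 ± 758 normalised counts in knockout (SD, n = 4), against 2409 ± 268 in wild type (SD, n = 7), a difference of 0.95 (SE 0.13, limma adjusted p = 1.31e-04). Ifi30, a thiol reductase that unfolds antigens in the lysosome, rose to 324 ± 19.3, against 185 ± 29.9 in wild type, a difference of 0.82 (SE 0.17, limma adjusted p = 0.00326). H2-DMb1, which pairs with H2-DMa, was at 351 ± 69.2 in knockout and 421 ± 51.6 in wild type, and its difference of -0.27 did not pass (limma adjusted p = 0.235). Ctss, the protease of the last cut of the invariant chain, passed without wild-type library 8 (0.35, limma adjusted p = 0.00140) and not with it (0.28, limma adjusted p = 0.225). Rfx5, a factor that binds class II promoters, was at 67.3 ± 28.5 in knockout and 54.8 ± 9.86 in wild type and did not pass (limma adjusted p = 0.747).

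Of 7 class I accessory genes tested, 0 rose and 1 fell (the same counts without wild-type library 8). That gene, Tapbpl, an editor of class I peptides, was at 80.3 ± 16.3 in knockout and 135 ± 30.2 in wild type, a difference of -0.74 (SE 0.24, limma adjusted p = 0.0375), which was lost in 9 of 20 alternatives. Tap2, the partner of Tap1, was at 217 ± 69.2 in knockout and 146 ± 49.5 in wild type and did not pass (0.57, limma adjusted p = 0.139). Nlrc5, the class I counterpart of Ciita, was too low to test, with 0 reads in the knockout libraries and 34 in the wild-type libraries. None of the 8 other class I heavy chains and relatives tested passed in limma with or without wild-type library 8, or in edgeR. At an unadjusted p under 0.05 stood 4 of them in limma and 0 in edgeR, beside 36.5% of all genes in limma and 26.9% in edgeR. Their median difference was -1.65 in limma. Each gene of this list that fell in limma fell less in edgeR, from H2-Q4 (-0.42, against -2.34 in limma) to H2-T24 (-1.75, against -2.50). H2-M3 rose in both. An example from the list is H2-Q7, at 13.3 ± 9.41 in knockout and 32.9 ± 15.3 in wild type (-1.77, limma adjusted p = 0.134, and -1.26 by edgeR).

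Among 5 immunoproteasome genes, 1 rose and 0 fell. Psmb9, a catalytic subunit whose gene adjoins Tap1, was at 161 ± 23.95 in knockout and 84.1 ± 21.8 in wild type, a difference of 0.96 (SE 0.25, limma adjusted p = 0.0113), while Psmb8, at 245 ± 41.0 in knockout and 262 ± 41.3 in wild type, did not pass (-0.10, limma adjusted p = 0.717). Of 9 tested genes of interferon-gamma signalling, the inducer of Ciita, 4 rose and 0 fell (5 and 0 without wild-type library 8). Ifngr1, a receptor chain, rose by 1.5 (SE 0.17, limma adjusted p = 2.22e-05), its partner Ifngr2 by 0.76 (limma adjusted p = 0.00761) and the transcription factor Irf8 by 0.56 (limma adjusted p = 0.00488). The kinase Jak1 rose by 0.47 (limma adjusted p = 0.0429), a call lost in 14 of 20 alternatives. Of 4 costimulation genes tested, Cd86, a ligand of T cells, rose by 0.77 (limma adjusted p = 0.0144) and 0 fell. Without wild-type library 8, these called pathway genes all passed, with differences of 0.93 for Lgmn, 0.73 for Ifi30, -0.80 for Tapbpl, 0.91 for Psmb9, 1.6 for Ifngr1, 0.79 for Ifngr2, 0.59 for Irf8, 0.52 for Jak1 and 0.85 for Cd86. Microglial markers moved the same way as these higher genes, with 5 of 8 higher in knockout, among them Tmem119 (1.23, limma adjusted p = 1.18e-05), and their part in these results was not tested.

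After injection of rAPOE into knockout brain, none of the 9 members passed in limma or in edgeR, where 0.481% of all 7066 genes tested were called. At an unadjusted p under 0.05, 1 of 9 members stood in limma and 1 in edgeR, near the share of all genes, 11.2% in limma and 8.15% in edgeR. The median difference of the members was 0.06, beside -0.01 for all genes. Leaving out rAPOE library 5 and PBS library 5 together also gave 0 calls among the members. With 704225 to 1347501 reads per PBS library, the class II genes rested on few reads, and the intervals below give what these libraries could show. Levels are not compared with the genotype table, which was scaled apart.

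**Figure D3:**
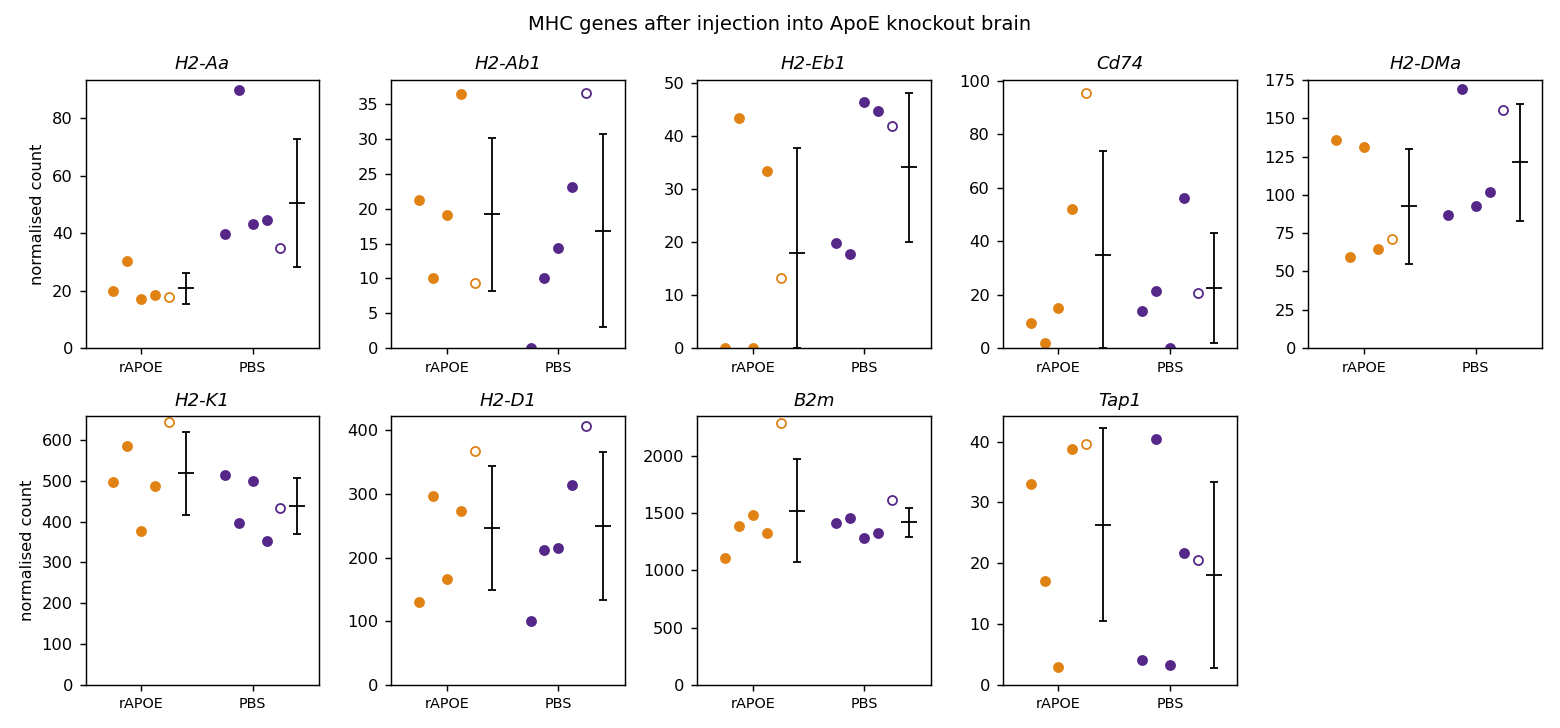
Normalised counts (vertical axes, each from 0) of the 9 MHC genes measured after injection into ApoE knockout brain, in 5 libraries after rAPOE (orange, left) and 5 after PBS (purple, right). Each point is a library, open points are the libraries numbered 5, and the bars are the mean ± SD, with the lower end not drawn below 0. For H2-Aa every rAPOE point lies below every PBS point.

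H2-Aa had 20.03, 30.3, 17.1, 18.6 and 17.9 normalised counts after rAPOE, against 39.7, 89.8, 43.2, 44.8 and 34.7 after PBS. Every rAPOE library lay below every PBS library. How many of all genes separate in this way was not counted. The difference was -1.18 (95% interval -2.32 to -0.04) and did not pass over all genes (limma adjusted p = 0.422, range 0.399 to 0.648 over 18 alternatives). Without the libraries numbered 5 it was -1.25 (limma adjusted p = 0.609).

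Its partner H2-Ab1 had 21.2, 10.1, 19.1, 36.5 and 9.33 normalised counts after rAPOE, against 0, 10.1, 14.4, 23.05 and 36.7 after PBS. The groups overlapped throughout, and the difference was 0.72 (95% interval -1.33 to 2.78, limma adjusted p = 0.829). Without PBS library 1, the one at 0, it was -0.14, and without the libraries numbered 5 it was 1.37 (limma adjusted p = 0.775).

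H2-Eb1 had 0, 43.4, 0, 33.4 and 13.2 normalised counts after rAPOE, against 19.9, 17.7, 46.4, 44.8 and 41.8 after PBS. The 2 libraries at 0 were both from the rAPOE group, but the others lay within the PBS range or just under it. The difference was -2.14 (95% interval -4.37 to 0.09, limma adjusted p = 0.474), -2.28 without the libraries numbered 5, and -0.93 by edgeR.

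Cd74 had 9.42, 2.02, 15.1, 52.0 and 95.6 normalised counts after rAPOE, against 14.1, 21.5, 0, 56.0 and 20.6 after PBS. Both groups spread over most of the same range, and the difference was 0.53 (95% interval -1.76 to 2.82, limma adjusted p = 0.897). Without rAPOE library 5, the highest, it was -0.06, and without both libraries numbered 5 it was 0.12. Summed over the 4 genes, class II RNA was at 50.7 to 140 after rAPOE and 73.6 to 169 after PBS.

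H2-DMa had 136, 59.5, 132, 64.4 and 71.5 normalised counts after rAPOE, against 86.9, 169, 92.8, 102 and 155 after PBS. The groups overlapped, and the difference was -0.42 (95% interval -1.18 to 0.33, limma adjusted p = 0.708), or -0.25 without the libraries numbered 5.

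Among class I genes, H2-K1 averaged 519 ± 101 normalised counts after rAPOE and 439 ± 68.6 after PBS (SD, n = 5 each), a difference of 0.23 (95% interval -0.24 to 0.70, limma adjusted p = 0.758). H2-D1 averaged 247 ± 97.5 after rAPOE and 250 ± 116 after PBS, a difference of 0.03 (95% interval -0.71 to 0.77, limma adjusted p = 0.989). B2m averaged 1520 ± 450 after rAPOE and 1420 ± 127 after PBS, a difference of 0.06 (95% interval -0.39 to 0.51, limma adjusted p = 0.951). For B2m, 4 rAPOE libraries lay between 1110 and 1485, near the PBS range of 1288 to 1613, and rAPOE library 5 stood alone at 2286. Tap1 had 3.01 to 39.6 after rAPOE and 3.2 to 40.5 after PBS, a difference of 0.64 (95% interval -1.27 to 2.55, limma adjusted p = 0.840). Without the libraries numbered 5 the differences were 0.15 for H2-K1, 0.07 for H2-D1, -0.05 for B2m and 0.57 for Tap1.

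No gene of the pathway lists passed after rAPOE in limma, among 9 class II accessory genes, 6 class I accessory genes, 2 other heavy chains, 5 immunoproteasome genes, 8 genes of interferon-gamma signalling and 3 costimulation genes tested. Of these 33 genes, 0 passed in edgeR, and 4 had an unadjusted p under 0.05 in limma and 3 in edgeR, again near the share of all genes. The 8 pathway genes that rose between genotypes had differences of both signs here. Lgmn averaged 1948 ± 261 normalised counts after rAPOE and 2911 ± 591 after PBS, a difference of -0.57 (limma adjusted p = 0.302). Ifngr1 averaged 201.3 ± 65.6 after rAPOE and 334 ± 73.6 after PBS (-0.75, limma adjusted p = 0.280), whereas its partner Ifngr2 averaged 103 ± 28.9 after rAPOE and 78.1 ± 46.5 after PBS (0.54, limma adjusted p = 0.679). The differences of the other genes were -0.82 for Cd86, -0.31 for Ifi30, -0.30 for Irf8, -0.08 for Jak1 and 0.20 for Psmb9, and none passed in limma. Microglial markers summed to 10512 to 21787 after rAPOE and 19594 to 23905 after PBS, with 2 of 8 lower after rAPOE in limma, P2ry12 (-1.77, adjusted p = 0.00663) and Siglech (-1.41, adjusted p = 0.0261). Without the libraries numbered 5 these were -1.54 (adjusted p = 0.0543) and -1.34 (0.181), and in edgeR -1.54 (0.0649) and -1.36 (0.0556), so the sizes held while the calls were lost. At an unadjusted p under 0.05 stood 7 of 8 microglial markers in limma and 7 in edgeR, and the part of this marker level in the values above was not tested. Dendritic cell markers (4 of 9 measured) summed to 2.02 to 69.2 after rAPOE and 3.31 to 60.8 after PBS, and B cell markers (4 of 8) to 51.5 to 164 after rAPOE and 108 to 292 after PBS. Among the tested markers of other cell types, only Saa3 passed in either tool, an acute-phase gene kept in the serosal macrophage list, at 66.2 to 386 after rAPOE and 0 to 1.26 after PBS.

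**Figure D4:**
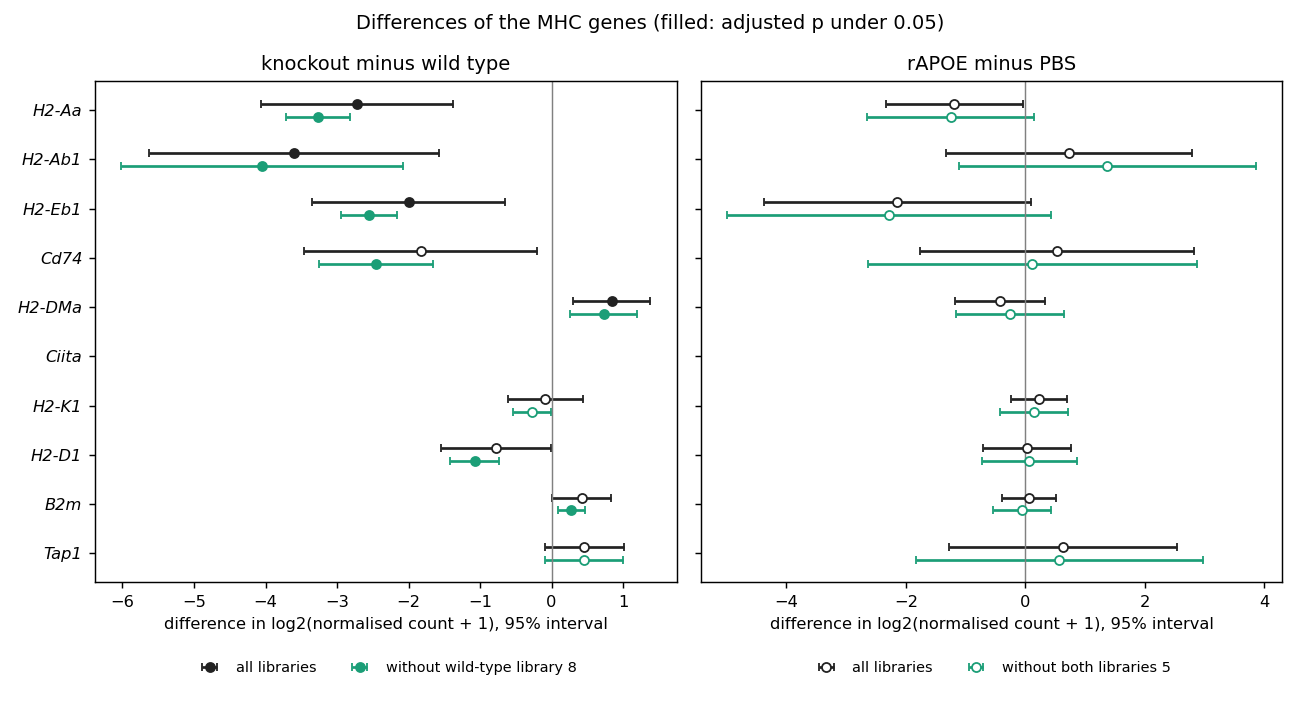
Differences in log2(normalised count + 1) with 95% intervals for the MHC genes, knockout minus wild type (left) and rAPOE minus PBS (right), with all libraries (black) and without wild-type library 8 or the libraries numbered 5 (green). Filled points have an adjusted p under 0.05, and Ciita has no tested value. Intervals of H2-Aa, H2-Eb1 and H2-D1 in the left panel are much narrower without wild-type library 8.

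Within groups, the class II genes were compared with each other by the Pearson correlation of their deviations from the group mean, over libraries that share depth and scaling. Over 11 genotype libraries, each gene against the mean of the other class II genes had r of 0.96 for H2-Aa, 0.46 for H2-Ab1, 0.95 for H2-Eb1 and 0.60 for Cd74. Without wild-type library 8, r was 0.57 for H2-Aa, -0.53 for H2-Ab1, 0.44 for H2-Eb1 and -0.89 for Cd74 over 10 libraries, so most of the common movement was that of 1 library. After injection, r lay between -0.07 and 0.12 for these genes over 10 libraries. The class I genes H2-K1, H2-D1 and B2m had 0.96, 0.93 and 0.94 over 11 genotype libraries and 0.76, 0.52 and 0.56 without library 8.

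Genes with a mean of at least 50 normalised counts were ranked by the same measure against the mean of the class II genes. Over 11 genotype libraries the closest were B2m (r = 0.99), Mbp (0.99), Creg1 (0.99), Axl (0.99), Cd63 (0.98) and Fam20c (0.98). Without wild-type library 8 they were Rab10 (0.99), Gle1 (0.98), Plekhm2 (0.98), Shkbp1 (0.97), B2m (0.97) and Ttc39b (0.97), so B2m stood in both rankings and no other gene did. In knockout library 3, which held no H2-Ab1 reads, B2m was also lowest of its group. The ranking without library 8 may thus rest largely on that single library. After injection they were Abcf1 (0.95), App (0.94), Sh3kbp1 (0.91), Evl (0.91), Anp32b (0.90) and Ttr (0.90). None of these 6 was among the closest in the genotype table. Against the class I mean, the closest over 11 genotype libraries were Cd63 (0.99), Axl (0.99), Smim14 (0.99), Cd68 (0.98), Rps21 (0.98) and Sdc3 (0.98). Without library 8 they included Arih2 (0.99), Cpe (0.97), Hnrnpa3 (0.97), Slc23a2 (0.97) and Yeats4 (0.96), none of them in the ranking with all libraries. After injection they were Eif4g2 (0.91), Ttr (0.90), Efhd2 (0.88), Ybx1 (0.86), Sf3b2 (0.86) and Sh3kbp1 (0.85).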

How the data were processed

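Total RNA of isolated microglia was made into QuantSeq 3′ mRNA-Seq FWD libraries (Lexogen), which give tags near the 3′ end of transcripts, and sequenced on an Illumina MiniSeq, per the labels' protocols. The submitters' processing notes name HTSeq, DESeq2, Picard 1.8.4, R 3.2.3 and GRCm38.p3, without roles. No source used here gives the aligner, annotation, strand setting or handling of shared tags. The authors deposited 2 tables, scaled apart, of a signal called normalised count here: the reads of a gene divided by a library-wide factor. All values above 0 were whole multiples of a step per library (100% within 0.01), which gave back the reads. Of 18221 entries of the genotype table, 22 named by dates (0.0966% of the summed values) and 120 at 0 in all libraries were left out.

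Values were fitted as log2(normalised count + 1) with limma 3.58.1 (trend) in R 4.3.3, over genes averaging 10 or more. All genes of a table were fitted together, with Benjamini-Hochberg adjustment and a threshold of 0.05. This scale can understate changes of low genes. Where single libraries stand at 0 it can also overstate them, so differences of low genes are not conservative. edgeR 4.0.16 (quasi-likelihood) was run on the recovered reads, where it called 498 genes higher and 1159 lower between genotypes and 23 and 1 after injection. Other alternatives were pseudocounts of 0.5 and 5, a minimum mean of 50 or none, TMM and quantile rescaling, each library left out, a replicate term, and both libraries numbered 5 left out. The limma step was tested on simulated data. Reads carry no molecular identifiers, so floors cover counting error only. No 2 libraries of a group differed by less than sampling noise. The MHC genes, the pathway lists, the marker lists and the rule naming up to 4 passing genes per list were chosen with earlier results of these data known. Positions are from GENCODE M21 (GRCm38), which names 99.3% (genotypes) and 99.9% (injections) of the genes; promoters are from RefSeq. Some genes of the lists and rankings are not reported here by name.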

Additional observations from a re-analysis of the deposited data

Results flagged for a closer look

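In groups of 4 to 7 libraries, a library was listed when its gap to the nearest other, as a share of the range of the group, passed Dixon's 95% critical value. This held in 10 of 37 groups of member values. Chance gives about 1 in 20 for independent, normally distributed groups, but these groups share libraries and are not independent. Wild-type library 8 was the low one for H2-Aa at 28.9 (nearest 354), H2-Ab1 at 28.9 (nearest 221), H2-Eb1 at 25.3 (nearest 330), Cd74 at 14.4 (nearest 274), H2-K1 at 711 (nearest 1636), H2-D1 at 439 (nearest 1616) and B2m at 1957 (nearest 3799). For H2-DMa, knockout library 3 was high at 358 (nearest 205). For H2-Aa after injection, rAPOE library 2 was high at 30.3 (nearest 20.03), and PBS library 2 was high at 89.8 (nearest 44.8).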

How the results depend on the processing

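Between genotypes, H2-Aa and H2-Ab1 passed under all 20 alternatives. Of the members, 1 was higher and 3 lower; quantile rescaling gave 2 higher, and leaving out single libraries gave 0 to 2 higher and 2 to 5 lower. Over all genes, 535 were higher and 2061 lower. Quantile rescaling gave 920 and 1027, a minimum mean of 50 gave 801 lower, no filter 3191 lower, and edgeR 1159 lower, and leaving out single libraries gave 407 to 790 higher and 1672 to 2351 lower. H2-K1 ran from -0.27 to 0.06 with a library left out, and was 0.061 without knockout library 3.

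After injection, 0 members were higher and 0 lower under every alternative. Over all genes, 26 were higher and 8 lower. A pseudocount of 5 gave 47 and 17, quantile rescaling 45 and 22, a minimum mean of 50 gave 16 lower, edgeR 1 lower, and the libraries numbered 5 left out gave 10 and 1. Leaving out single libraries gave 13 to 36 higher and 2 to 38 lower. Signs turned for H2-Ab1 (-0.14 to 1.17 with a library left out), Cd74 (-0.41 to 1.19), H2-D1 (-0.26 to 0.24, and -0.029 by edgeR) and B2m (-0.10 to 0.16, and -0.052 without the libraries numbered 5). The cause of these changes was not tested.

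Not every pair of equal replicate numbers deviated together by a correlation over 0.1, so the numbers were not taken as pairs. The correlations were -0.03 to 0.02 between genotypes; after injection they were -0.00418 to 0.021 for numbers 1 to 3, 0.19 for 4 and 0.11 for 5. Libraries 4 and 5 of both injected groups also held more detected genes (10025 to 11342) than libraries 1 to 3 (7601 to 8837). A replicate block over genotype libraries 1 to 4 gave 0 members higher and 5 lower, as did these libraries without the block, chosen after seeing the data. After injection the replicate block gave 0 members and 17 genes lower in all. Depth limits Ciita and the class II genes after injection.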
